A study of Mus musculus with 4 samples.

Results

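The genes described here were the heat shock transcription factor Hsf1 and 9 chaperone or co-chaperone genes, Hspa1a, Hspa1b, Hsph1, Dnajb1, Hsp90aa1, Hspb1, Cryab, Hspd1 and Bag3. They were taken by gene symbol from a table of 56691 genes measured in 4 mouse sarcomas, each of the 10 symbols matched 1 row, and all 10 were among the 17188 genes that passed the filter on low counts. RNA-seq had been performed on bulk tumor tissue, 2 sarcomas from mice treated with arsenic trioxide (ATO 1 and ATO 2) and 2 from control mice (PBS 1 and PBS 2). All 4 came from mice with the same heterozygous p53 mutation, W/+, written p53R282W/+ in the sample labels by its human residue, where the methods number the mouse residue. The allele is in the germline, so tumor and host cells both descend from cells that carried it. Whether the tumors kept their wild-type allele is not stated. The treated mice drank 35 mg/L ATO from day 90 until they died, and the control agent is PBS in the labels, whereas the methods speak of untreated mice. The labels give neither the type of sarcoma nor the age of each mouse, so tumor type and treatment cannot be told apart. All 4 labels also hold a cell culture protocol (dexamethasone, isobutylmethylxanthine, then insulin) that the methods do not mention for tumor tissue, and labels and methods disagree on the RNA extraction and library kits. The comparison of both groups asks how the sarcoma transcriptome differed with ATO.

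HSF1 is the main transcription factor of the heat shock response. In unstressed cells it is held inactive by chaperones, and when unfolded proteins occupy these it binds heat shock elements and raises the transcription of chaperone genes such as Hspa1a, Hspa1b, Hsph1, Dnajb1 and Bag3. Trivalent arsenic binds thiol groups of proteins and is a classical inducer of this response in cultured cells, while several small heat shock proteins, Cryab among them, are also abundant in muscle without any stress.

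No chaperone gene passed the test. With edgeR and an adjusted p threshold of 0.05, 0 of the 10 genes differed between ATO and PBS, and neither did any other gene (0% of 17188 tested, smallest adjusted p = 0.57). At an unadjusted p under 0.05 edgeR had 2 of the 10, Cryab and Hspb1, beside 1463 of all genes (8.51%). DESeq2, run as an alternative, called 754 genes (4.13% of 18277) and, of the 10, Cryab, and limma on FPKM called 0. Both small heat shock protein genes were higher in both ATO sarcomas, whereas the inducible HSP70, HSP110 and DNAJB1 genes were high in ATO 2 and PBS 2 and low in ATO 1 and PBS 1. The fitted level in ATO was higher for 7 of the 10 genes and lower for 3, with a median log2 fold change of 0.37 beside -0.02 over all genes. Of all genes tested 49.2% were fitted higher. Hspa1a and Hspa1b, which are nearly the same in sequence, are both among the 7. With ATO 2 left out only 3 of the 10 were fitted higher, and their median was -0.16. In TMM-normalized CPM both ATO sarcomas were above both PBS sarcomas for 3 of the 10 genes, Cryab, Hspb1 and Bag3, beside 19.7% of all genes, and below them for Hsf1 alone, beside 20.2%. An exact permutation test of 2 sarcomas against 2 cannot give a two-sided p below 0.333, so single genes were not tested that way.

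Total counts ranged from 15259695 to 18134000 per sarcoma. Mitochondrially encoded genes took 1.98% to 2.59% of the counts in PBS 1, PBS 2 and ATO 1 and 14.7% in ATO 2. Levels are given as normalized CPM, the count divided by the total count and by a TMM factor that offsets library composition, and levels are compared between genes only as FPKM, which also divides by exon length. Because the tissue was bulk, fewer cells of a type and less RNA per cell cannot be told apart. Markers of other cell types differed widely between the 4 tumors. The 8 skeletal muscle markers (Acta1, Ckm, Myh1, Myh4, Myl1, Mylpf, Tnnt3 and Actn3) summed to 7.24 FPKM in PBS 1, 129 in PBS 2, 14900 in ATO 1 and 1020 in ATO 2, and 5 adipocyte markers summed to 12.7, 66.2, 229 and 1370 in the same order. All 8 and all 5 were higher in both ATO sarcomas than in both PBS sarcomas in normalized CPM, beside 19.7% of all genes. None of the muscle markers was at 0 counts in any sarcoma, while the adipocyte markers Plin1 and Lep were at 0 in PBS 1 and Lep also in PBS 2. The 5 mesenchymal markers (Vim, Col1a1, Col1a2, Pdgfra and Pdgfrb) were present in each sarcoma, at a sum of 801 FPKM in ATO 2 and 1280 to 3930 in the others. Col1a1 alone was at 2276.42 and 273.32 FPKM in PBS 1 and PBS 2 and at 2413.42 and 315.1 in ATO 1 and ATO 2. In normalized CPM 2 of the 5, Vim and Pdgfrb, were lower in both ATO sarcomas, beside 20.2% of all genes, and 0 were higher.

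**Figure D1:**
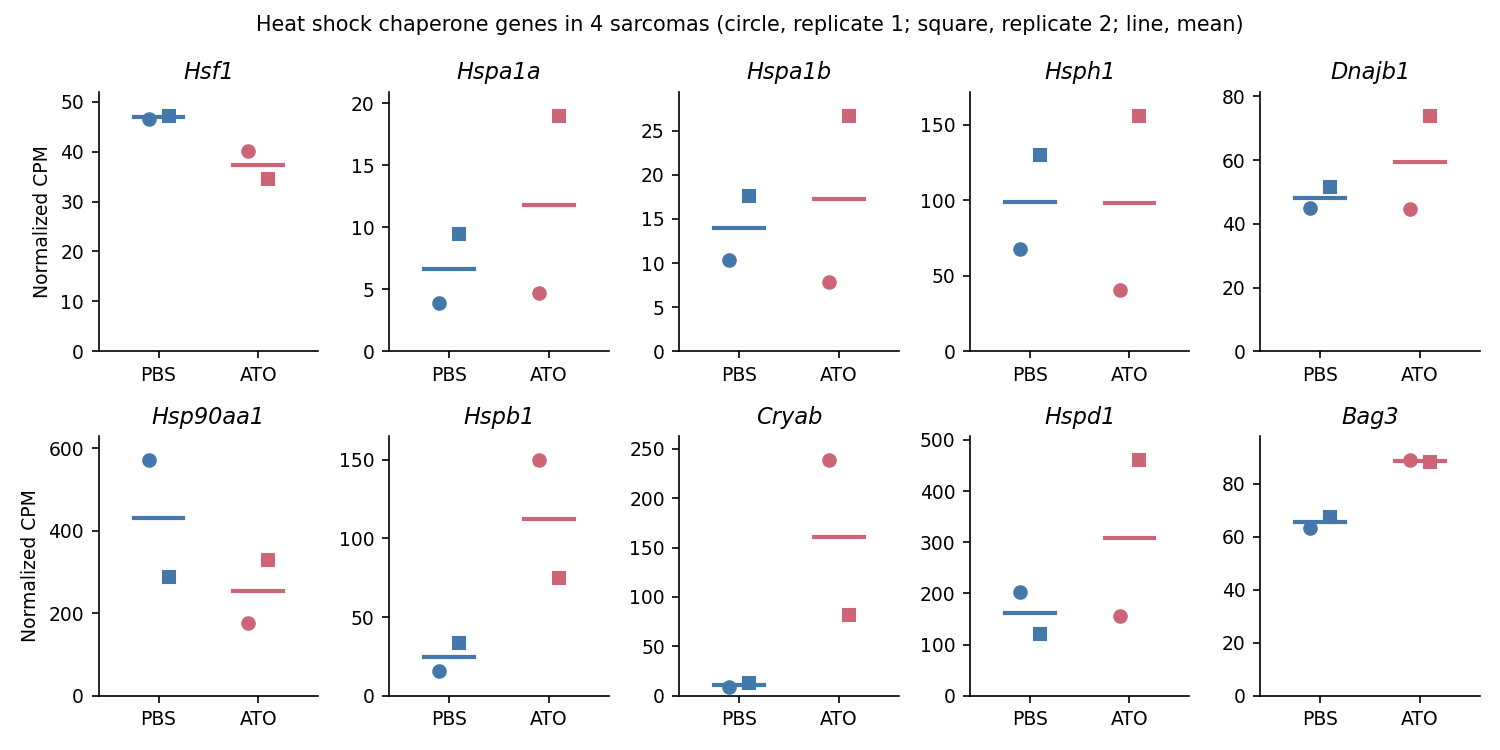
Normalized CPM (vertical axis, linear from 0) of each of the 10 genes in the PBS (blue) and ATO (red) sarcomas, with replicate 1 as a circle, replicate 2 as a square and the group mean as a line. Cryab, Hspb1 and Bag3 lie higher in both ATO sarcomas, Hsf1 lies lower, and the other 6 overlap between the groups.

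Hsf1 itself (chr15:76477422-76501913, plus strand) was at 46.5 and 47.2 normalized CPM in PBS 1 and PBS 2, and at 40.1 and 34.5 in ATO 1 and ATO 2. Both ATO sarcomas were thus below both PBS sarcomas. The fitted log2 difference was -0.33 (SE 0.36, edgeR adjusted p = 0.827), which is within its error. As FPKM, Hsf1 was also lower in both ATO sarcomas, at 5.67 and 3.97 against 7.13 and 7.34. Of all genes 29.6% were lower in both by FPKM. The other genes listed as heat shock factors and regulators did not separate the groups. Hsf2, a factor with roles in development and in the stress response, was at 14.5 and 18.4 normalized CPM in PBS and 37.9 and 17.1 in ATO, and Hsbp1, a small protein that binds HSF1, was at 95.1 and 68.9 against 90.2 and 130. Of 4 such genes 3 were tested, and their log2 fold changes ran from 0.43 to 0.75.

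The stress-inducible cytosolic chaperones came next. Hspa1a and Hspa1b encode inducible HSP70, lie 12918 bases apart by their starts on the minus strand of chromosome 17, and are nearly the same in sequence. Of all stretches of 150 bases in their annotated transcripts, 46% for Hspa1a and 40.5% for Hspa1b occur in another gene's transcripts as well, so their counts depend on how shared reads were handled, which the sources used here do not state. Upstream of the start they are alike too, with the same base at 247 of 250 positions. These 250 bases, from the RefSeq promoter windows of GRCm38.p6 (minus strand, chr17:34972157-34972406 for Hspa1a and chr17:34959239-34959488 for Hspa1b), are shown because both genes are known targets of HSF1 and their counts cannot be fully separated. Capitals mark 2 adjoining units of a heat shock element (GAANNTTC or TTCNNGAA, where N is any base).
Hspa1a: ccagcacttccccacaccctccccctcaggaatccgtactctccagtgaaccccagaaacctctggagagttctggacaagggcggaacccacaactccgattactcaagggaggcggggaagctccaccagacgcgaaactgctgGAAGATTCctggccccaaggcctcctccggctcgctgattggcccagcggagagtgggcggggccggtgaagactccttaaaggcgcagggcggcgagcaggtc
Hspa1b: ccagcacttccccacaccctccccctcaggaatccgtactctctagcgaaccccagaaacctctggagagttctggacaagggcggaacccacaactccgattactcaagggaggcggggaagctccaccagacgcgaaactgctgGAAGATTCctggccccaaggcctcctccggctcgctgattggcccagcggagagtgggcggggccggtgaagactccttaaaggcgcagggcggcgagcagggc
The marked match lies 104 bases before the start in both. No window of either gene held 3 units in a row.

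Hspa1a was at 3.94 normalized CPM in PBS 1, 9.42 in PBS 2, 4.67 in ATO 1 and 19 in ATO 2. Hspa1b was at 10.3, 17.6, 7.91 and 26.7 in the same order. For both genes PBS 2 and ATO 2 were the high sarcomas, and the groups overlapped. Summed, the gene pair had 271 and 536 counts in the PBS sarcomas and 229 and 570 in the ATO sarcomas, or 14.3, 27, 12.6 and 45.7 normalized CPM, so that the lowest and the highest sarcoma were both ATO-treated. The log2 fold change was 0.82 for Hspa1a (SE 0.92, adjusted p = 0.829) and 0.31 for Hspa1b (SE 0.75, adjusted p = 0.931) in edgeR, and for their sum it was 0.50 (SE 0.77, adjusted p = 0.88). Without ATO 2 the values were -0.51 for Hspa1a and -0.81 for Hspa1b. Hspa1a took 27.7% and 34.9% of the summed counts in PBS and 37.1% and 41.6% in ATO. The constitutive relative Hspa8 was at 30.4 to 58.6 times the summed FPKM of Hspa1a and Hspa1b, most in PBS 1 and least in ATO 2. Of the stretches of 150 bases in the transcripts of Hspa8, 49.3% also occur in other annotated genes. Both sides of this ratio thus depend on how shared reads were handled. Hspa1l, which starts 547 bases from Hspa1a on the other strand, was low in every sarcoma, at 0.58 to 2.99 FPKM.

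Hsph1 encodes HSP110, a nucleotide exchange factor of HSP70 (chr5:149614287-149636376, minus strand). It was at 67.8 normalized CPM in PBS 1, 130 in PBS 2, 40.7 in ATO 1 and 156 in ATO 2. Again ATO 2 and PBS 2 were high and ATO 1 was lowest, and the fitted difference was -0.01 on the log2 scale (SE 0.77, adjusted p = 0.997). Leaving out ATO 1 turned this to 0.64 and leaving out ATO 2 to -1.27, so the sign depended on a single sarcoma. Dnajb1 encodes the J-domain protein that delivers clients to HSP70 and stimulates its ATPase (chr8:83608193-83612653, plus strand). Its levels were 45, 51.5, 44.8 and 74 normalized CPM in PBS 1, PBS 2, ATO 1 and ATO 2, with a log2 fold change of 0.30 (SE 0.42, adjusted p = 0.867). Without ATO 2 it was -0.10.

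In normalized CPM Hspa1b, Hsph1 and Dnajb1 put the 4 sarcomas in the same order, ATO 2, PBS 2, PBS 1 and ATO 1 from high to low. This order was picked out after the values were seen, and 649 of all genes tested (3.78%) had it. Hspa1a differed from it only in its lowest pair of sarcomas. As FPKM Hspa1b and Dnajb1 kept the order, but Hsph1 was highest in PBS 2, at 19.77 against 17.51 in ATO 2. Among 74 other chaperone and stress genes, the profiles over the 4 sarcomas nearest to that of Hspa1a plus Hspa1b were those of Chordc1, an HSP90 co-chaperone, Hmox1, the heme oxygenase that arsenic is known to induce, and Hspa8, at distances of 0.441, 0.571 and 0.689 in log2 normalized CPM. Hmox1 was at 189 and 443 normalized CPM in PBS and at 154 and 876 in ATO. Chordc1 was at 46.2 and 63.5 against 40.4 and 103. The 8 immediate early genes (Fos, Fosb, Jun, Junb, Egr1, Atf3, Ier2 and Dusp1) rise within minutes of handling or stress. They summed to 142 and 334 FPKM in PBS 1 and PBS 2 and to 111 and 190 in ATO 1 and ATO 2. PBS 2 and ATO 2 were the higher sarcoma of each group in this sum, but PBS 2 was the highest. By FPKM Egr1 and Ier2 were higher in ATO 1 than in ATO 2, at 9.88 against 5.63 and 18.71 against 16.04, unlike the other immediate early genes. In normalized CPM Fosb and Jun were lower in both ATO sarcomas, beside 20.2% of all genes, and 0 of the 8 were higher. The part of these genes in the chaperone levels was not tested.

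**Figure D2:**
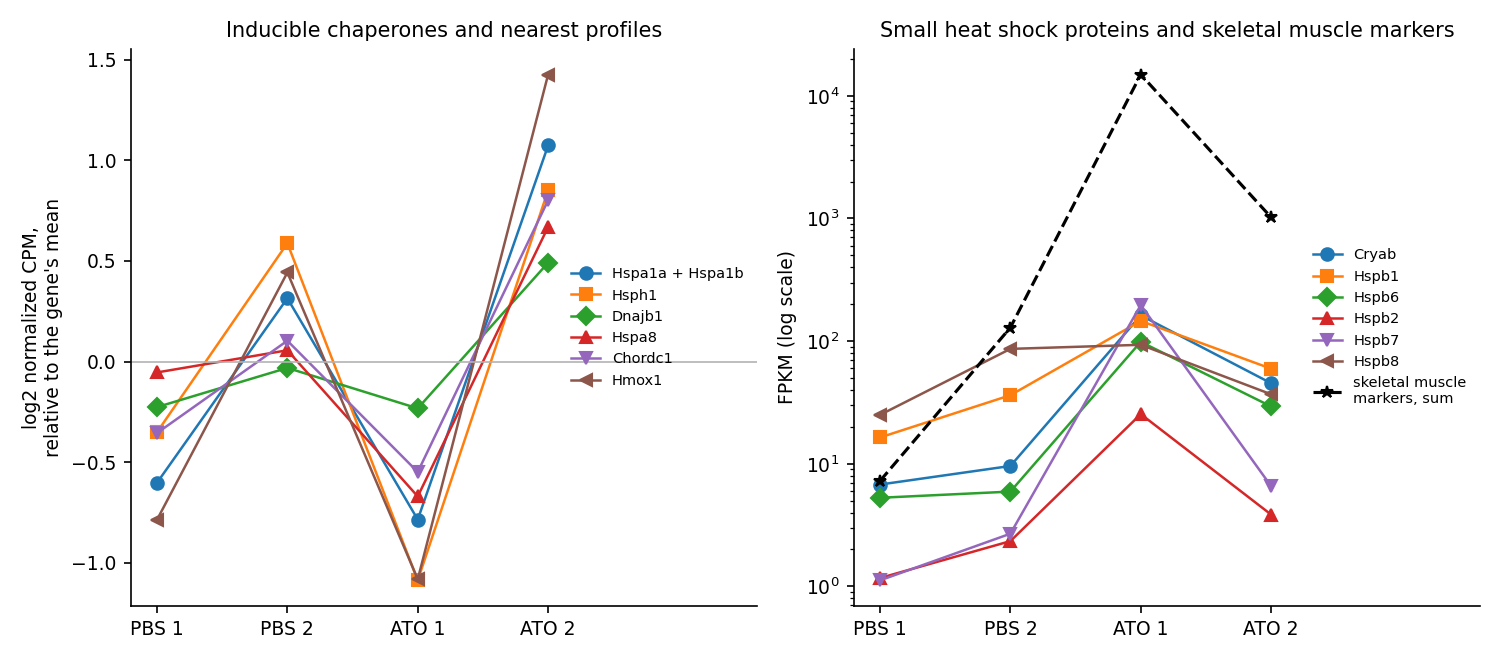
Left, log2 normalized CPM of Hspa1a plus Hspa1b (summed), Hsph1, Dnajb1, Hspa8, Chordc1 and Hmox1 in each sarcoma, relative to the mean of each gene over the 4 sarcomas. Right, FPKM (log axis) of Cryab, Hspb1 and 4 other small heat shock protein genes with the summed FPKM of 8 skeletal muscle markers as a dashed line. Lines join the sarcomas only to guide the eye. On the left ATO 2 is the highest and ATO 1 the lowest sarcoma for each of these profiles, with Dnajb1 at 44.8 in ATO 1 and 45 in PBS 1. On the right Cryab, Hspb1, Hspb2, Hspb6, Hspb7, Hspb8 and the muscle sum peak in ATO 1.

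Hsp90aa1 encodes the inducible cytosolic HSP90 (chr12:110690605-110702728, minus strand). It was at 572 and 288 normalized CPM in PBS 1 and PBS 2 and at 176 and 330 in ATO 1 and ATO 2. PBS 1 was the highest and ATO 1 the lowest sarcoma, ATO 2 lay above PBS 2, and the fitted log2 difference was -0.76 (SE 0.62, adjusted p = 0.761 in edgeR). It was -0.19 without PBS 1, -1.18 without PBS 2, -0.40 without ATO 1 and -1.28 without ATO 2. On the FPKM scale the same gene was lower in both ATO sarcomas, 45.03 and 68.62 against 158.36 and 80.88. FPKM is divided by the total count without the TMM factors, which were 0.822 for ATO 2 and 1.01 to 1.11 for the other sarcomas. Of the stretches of 150 bases in its transcripts, 30.9% also occur in other annotated genes, most of them in Gm12346. Hsp90ab1, the constitutive HSP90, had 4.05 and 8.08 times the FPKM of Hsp90aa1 in PBS and 11.5 and 4.9 times in ATO. Hsp90ab1 itself was at 1770 normalized CPM in both PBS sarcomas and at 1550 and 1230 in ATO (log2 fold change -0.35, SE 0.64, adjusted p = 0.902).

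The small heat shock proteins bind unfolding proteins without ATP and keep them from aggregating. Cryab, αB-crystallin (chr9:50751325-50756636, plus strand), had the largest log2 fold change of the 10 genes. Its levels were 9.2 and 12.8 normalized CPM in PBS 1 and PBS 2 and 239 and 82 in ATO 1 and ATO 2. Both ATO sarcomas were above both PBS sarcomas, and the ATO sarcomas differed 2.91-fold from each other. The group means were 160 ± 111 normalized CPM in ATO and 11 ± 2.58 in PBS (SD, n = 2), and the log2 fold change was 3.86 (SE 0.70). The edgeR adjusted p was 0.57, although the gene ranked 68th of 17188 by p. DESeq2 called it (adjusted p = 0.000107), and over all alternatives run the adjusted p of Cryab ran from 0.000107 to 0.872. Its log2 fold change stayed between 2.88, without ATO 1, and 4.44, without ATO 2.

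Hspb1, HSP25 in the mouse (chr5:135887919-135889563, plus strand), was at 15.5 and 33.8 normalized CPM in PBS 1 and PBS 2 and at 150 and 75.1 in ATO 1 and ATO 2. The groups did not overlap. The means were 112 ± 52.9 and 24.7 ± 12.9 normalized CPM (SD, n = 2), and the fitted log2 difference was 2.19 (SE 0.62, adjusted p = 0.57). The value was 1.59 without ATO 1 and 2.61 without ATO 2. Of the stretches of 150 bases in its transcripts, 39.1% also occur in the pseudogene Hsp25-ps1. Per length, Hspb1 was the more abundant in PBS, where Cryab had 0.413 and 0.265 of its FPKM, and in ATO the ratio was 1.11 and 0.761. As FPKM only Cryab and Hspb1 of the 10 genes were above both PBS sarcomas in both ATO sarcomas, beside 12.8% of all genes. The 250 bases before the start of Hspb1 (plus strand, chr5:135887669-135887918, RefSeq, GRCm38.p6) held 2 separate matches of 2 units, in capitals, and are shown for comparison with the HSP70 genes.
Hspb1: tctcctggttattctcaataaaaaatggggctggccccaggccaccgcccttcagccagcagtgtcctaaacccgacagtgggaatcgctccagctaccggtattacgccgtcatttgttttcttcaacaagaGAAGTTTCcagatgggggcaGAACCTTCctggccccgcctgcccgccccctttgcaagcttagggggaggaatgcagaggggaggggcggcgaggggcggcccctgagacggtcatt
The matches begin 117 and 97 bases before the start.

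Cryab and Hspb1 had the same order of sarcomas as the skeletal muscle markers. From low to high it was PBS 1, PBS 2, ATO 2 and ATO 1 for both genes and Bag3 in normalized CPM and for the summed FPKM of the muscle markers. Of all genes tested 983 (5.72%) had it in normalized CPM. The size of the steps differed. The muscle sum was 129 FPKM in PBS 2 against 7.24 in PBS 1, where Cryab was at 9.59 against 6.77 FPKM, and 14900 in ATO 1 against 1020 in ATO 2, where Cryab was at 162.04 against 45.33. The part of muscle or fat RNA in the levels of Cryab and Hspb1 was not tested. Cardiac muscle markers were near 0, at a sum of 1.65 to 4.99 FPKM, and smooth muscle markers summed to 257 and 75.4 FPKM in PBS against 22.7 and 194 in ATO.

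Several of the other small heat shock protein genes, which are also known for their expression in muscle, had like profiles. Of the 6 genes in this list 4 (Hspb2, Hspb3, Hspb6 and Hspb7) were higher in both ATO sarcomas in normalized CPM (19.7% of all genes) and in FPKM (12.8%), 0 passed the test, and the median log2 fold change was 3.14. Hspb3 was near the floor, at 5 and 4 counts in PBS and 57 and 10 in ATO. Hspb6 was at 11.2 and 12.3 normalized CPM in PBS and at 226 and 82.4 in ATO (log2 fold change 3.71, SE 0.65, adjusted p = 0.57), and was the nearest profile to Cryab of all 74 genes compared, at a distance of 0.262, before Hspb2 at 1.45 and the metallothionein Mt2 at 1.87. Hspb7 was at 2.84 and 6.75 against 543 and 22.2 (log2 fold change 5.88, SE 1.74). Without ATO 1 the list's median was 1.64. The lens crystallin gene Cryaa was low, at 0.25 to 0.69 FPKM. Hspb8, the partner of BAG3, overlapped between the groups, at 44.8 and 153 normalized CPM in PBS and 181 and 87.8 in ATO. Hspb2 lies head to head with Cryab on the opposite strand, their gene bodies overlap by 1030 bases, and its counts were 17, 35, 384 and 49 in PBS 1, PBS 2, ATO 1 and ATO 2. Whether reads were counted by strand is not stated, so reads from the overlap cannot be assigned to either gene with certainty. Cryab had 175, 255, 4346 and 1023 counts.

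Bag3 (chr7:128523616-128546981, plus strand) encodes the co-chaperone that links HSP70 to small heat shock proteins and to autophagy, and is needed for the upkeep of striated muscle. It was at 63.3 and 67.6 normalized CPM in PBS 1 and PBS 2 and at 89 and 88.3 in ATO 1 and ATO 2. The gap between the groups was wider than either group's spread, 65.4 ± 3.04 against 88.6 ± 0.488 (SD, n = 2), but the fitted log2 difference of 0.44 was near its SE of 0.34 (adjusted p = 0.75). The SE comes from the quasi-likelihood test, which borrows spread from other genes. The common biological coefficient of variation over all genes tested was 62.5%. As FPKM the groups overlapped, at 26.89 and 29.12 in PBS and 34.87 and 28.19 in ATO. In the rest of the BAG family, Bag2, an inhibitor of the ubiquitin ligase CHIP, was at 24.9 and 25.8 normalized CPM in PBS and 10.1 and 9.54 in ATO (log2 fold change -1.37, SE 0.43, adjusted p = 0.57), and Bag4 was at 11.2 and 10.4 against 13.3 and 19.6. Of 5 such genes 2 were fitted higher and 3 lower.

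Hspd1 encodes HSP60, the chaperonin of the mitochondrial matrix (chr1:55077835-55088243, minus strand), and Hspe1 encodes its lid HSP10 from the opposite strand, with starts 111 bases apart. Hspd1 was at 202 and 121 normalized CPM in PBS 1 and PBS 2 and at 156 and 461 in ATO 1 and ATO 2. ATO 2 was far above the other sarcomas and ATO 1 lay between the PBS sarcomas, with a log2 fold change of 0.94 (SE 0.70, adjusted p = 0.735) that became -0.04 without ATO 2. Of the stretches of 150 bases in the transcripts of Hspd1, 16.1% also occur in Hspd1-ps3. Hspe1 had the same order of sarcomas as Hspd1, at 59.3, 32.1, 44.2 and 120 normalized CPM (log2 fold change 0.84, SE 0.65, adjusted p = 0.743). RefSeq gives Hspd1 more than 1 start. The promoter window of its downstream start (chr1:55087883-55088182), which lies inside the gene body given above, held 4 heat shock units in a row, the longest run in the windows of the 7 genes searched, and the window of the upstream start (chr1:55088194-55088493) held none. A run of 4 was present in 8 of 32851 RefSeq promoter windows (0.0244%), of which Hspd1 and Hspe1 are 2 windows on the same bases. The 18 matched bases (chr1:55088059-55088076) are 144 bases before the downstream RefSeq start of Hspd1 and 89 before that of Hspe1. They are shown within 30 bases (chr1:55088053-55088082, GRCm38.p6), in capitals, as read on each gene's strand.
Hspd1: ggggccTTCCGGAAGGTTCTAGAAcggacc
Hspe1: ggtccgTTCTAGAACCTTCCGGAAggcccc
Chordc1, the nearest profile to the HSP70 genes, was also among these 8 windows.

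Runs of 3 units (GAANNTTCNNGAA or TTCNNGAANNTTC, both strands) were in 0.603% of all windows and runs of 2 units in 15.1%. Promoter windows were at hand for 7 of the 10 genes, 10 windows in all, of which 7 held 2 units and 3 held 3 units or more. The latter were the Hspd1 window above and both windows of Hsph1, which share the match. It begins 37 bases after the start in 1 window and 16 after it in the other, and is given in capitals within 30 bases (minus strand, chr5:149636287-149636316).
Hsph1: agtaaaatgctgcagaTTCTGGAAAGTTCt
Neither window of Dnajb1, whose normalized CPM had the same order of sarcomas as that of Hsph1, held 2 units. A match describes the letters alone.

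In normalized CPM the other mitochondrial chaperones and proteases were, like Hspd1, highest in ATO 2, each of the 7, beside 25.5% of all genes. As FPKM Clpp was highest in PBS 1, at 37.08 against 34.88 in ATO 2. Hspa9, mitochondrial HSP70, was at 368 and 166 normalized CPM in PBS and at 313 and 865 in ATO. Clpb, a disaggregase of the intermembrane space, was at 21 and 16.2 against 35.5 and 87.5 (log2 fold change 1.72, SE 0.58, adjusted p = 0.57), and Trap1, mitochondrial HSP90, at 58.1 and 57.7 against 71.6 and 192. All 7 were fitted higher, beside 49.2% of all genes, with a median of 0.84, which became -0.05 without ATO 2. ATO 2 was also the sarcoma in which mitochondrially encoded genes took 14.7% of the counts. Leaving these out of the table left the median at 0.84 and the value for Hspd1 at 0.94, and the part of mitochondrial content in these levels was not tested.

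**Figure D3:**
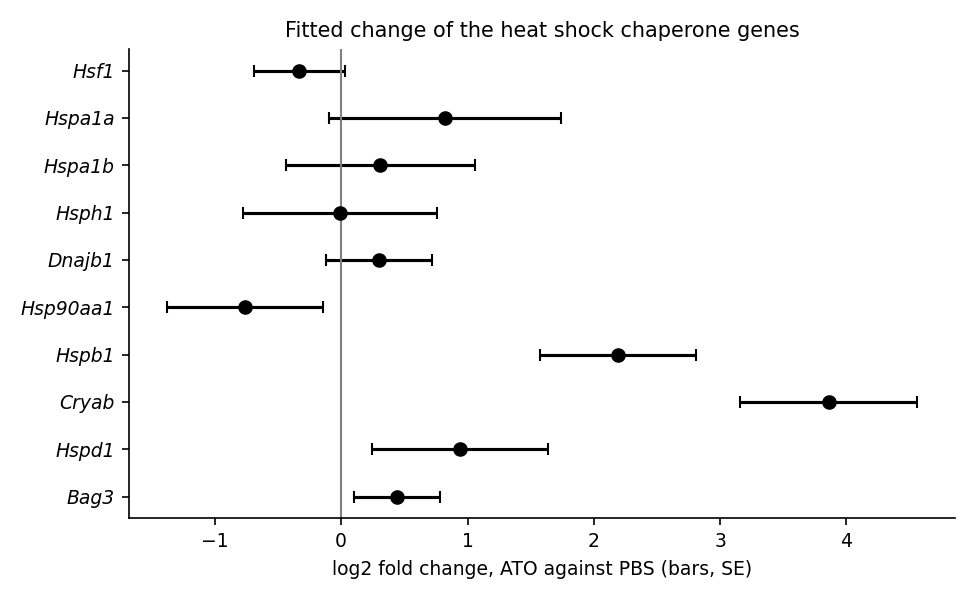
Fitted log2 fold change of each gene, ATO against PBS (horizontal axis), with its SE as bars. Cryab at 3.86 and Hspb1 at 2.19 lie apart from the other 8, which run from -0.76 for Hsp90aa1 to 0.94 for Hspd1.

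The 76 further chaperone and stress genes were compared by class, and 0 of the 75 tested passed, with 40 fitted higher, 35 lower and a median log2 fold change of 0.15. Of all genes 49.2% were fitted higher, and this is the background for each class. The 8 subunits of TRiC, the cytosolic chaperonin that folds actin and tubulin, were all fitted lower, with a median of -0.42 and a range of -0.92 to -0.28. Both ATO sarcomas were below both PBS sarcomas for 6 of them in normalized CPM, beside 20.2% of all genes, and for 8 in FPKM, beside 29.6%. Cct6a was at 280 and 279 normalized CPM in PBS and 153 and 142 in ATO (log2 fold change -0.92, SE 0.41, adjusted p = 0.604), and Cct2, with the smallest difference, at 185 and 224 against 195 and 141. The list of further HSP70 and HSP110 genes had a median of -0.26. Hspa1l had its highest value, at 2.95 and 1.36 normalized CPM in PBS and 7.36 and 1.76 in ATO (log2 fold change 1.09, SE 0.97). Hspa8 was at 1260 and 1360 normalized CPM in PBS and 822 and 2080 in ATO (log2 fold change 0.15, SE 0.74), and Hspa13, which had the lowest value and encodes a microsomal rather than a cytosolic HSP70, at 102 and 57 against 39.2 and 50.6 (-0.83, SE 0.46).

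Among the J-domain co-chaperones 6 of 8 were fitted higher, beside 49.2% of all genes, and 2 lower. With total counts alone or as FPKM 3 were higher and 5 lower. Dnaja4 had the highest value, with 11.7 and 15.3 normalized CPM in PBS and 45.8 and 20.1 in ATO (log2 fold change 1.29, SE 0.57, adjusted p = 0.602), and Dnaja1, a type I J-domain protein, the lowest, with 197 and 214 against 98.9 and 277 (-0.13, SE 0.62). HSP90 and its co-chaperones had a median of -0.03, which was -0.32 with total counts alone and -0.46 and -0.50 as FPKM. Fkbp4, an immunophilin of steroid receptor complexes, was at 76.9 and 56.7 against 68.6 and 128, and Cdc37, which loads kinases onto HSP90, at 218 and 129 against 99.2 and 123. Of 13 endoplasmic reticulum chaperones 3 were fitted higher and 10 lower, but 8 and 5 without PBS 1 and 6 and 7 without ATO 1. Dnajb9 was at 42.8 and 39.2 normalized CPM in PBS and 52 and 72.4 in ATO (log2 fold change 0.60, SE 0.39), and Serpinh1, the collagen chaperone HSP47, at 990 and 705 against 440 and 571 (-0.74, SE 0.55).

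**Figure D4:**
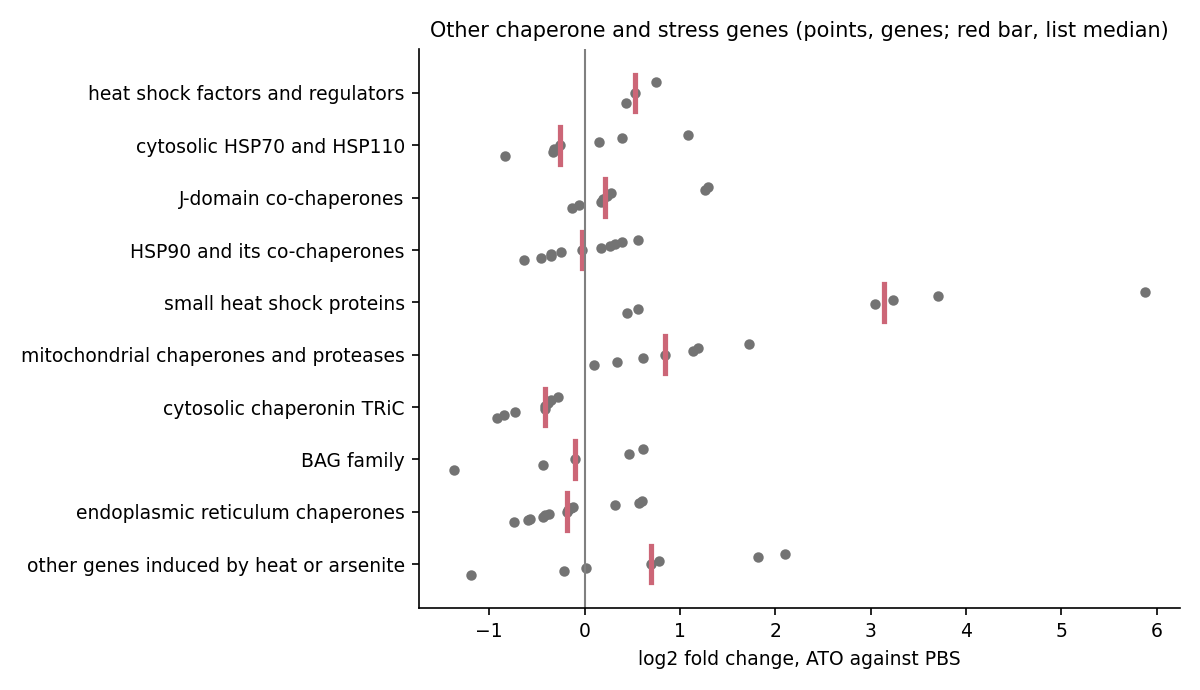
Fitted log2 fold change, ATO against PBS (horizontal axis), of each tested gene (points) in 10 classes of chaperone and stress genes, with the median of each class as a red bar. The small heat shock proteins have a median of 3.14, TRiC lies wholly below 0 with a median of -0.42, and the mitochondrial class lies wholly above 0 with a median of 0.84.

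Of 7 other genes induced by heat or arsenite, 5 were fitted higher, beside 49.2% of all genes, and 2 lower. The metallothioneins, which bind arsenic and zinc, were higher in both ATO sarcomas, Mt1 at 147 and 80.2 normalized CPM against 34.3 and 29.8 (log2 fold change 1.82, SE 0.46, adjusted p = 0.57) and Mt2 at 130 and 33.7 against 19.5 and 18.6 (2.10, SE 0.73, adjusted p = 0.57). Zfand2a, an arsenite-inducible protein of the proteasome and a target of HSF1, had the lowest value, at 30.2 and 45.1 in ATO against 40.2 and 132 in PBS (-1.19, SE 0.68, adjusted p = 0.669).

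Set side by side per length, the 10 genes summed to 330 and 262 FPKM in PBS 1 and PBS 2 and to 477 and 398 in ATO 1 and ATO 2. The make-up of the sum differed more than its size. Hsp90aa1 held 48% and 30.9% of it in PBS but 9.4% and 17.2% in ATO. Cryab held 2.1% and 3.7% in PBS 1 and PBS 2 and 34% and 11.4% in ATO 1 and ATO 2. Hspb1 held 5% and 13.8% in PBS and 30.6% and 15% in ATO, so that PBS 2 and ATO 2 were close. In ATO 2 the leading gene was Hspd1, with 35.9%. The treated sarcomas also differed more from each other in these genes than in the median gene. The median absolute difference between ATO 1 and ATO 2, in log2(normalized CPM + 1), was 1.26 over the 10 genes beside 0.54 over all genes, and that between PBS 1 and PBS 2 was 0.73 beside 0.51.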

How the data were processed

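RNA-seq reads of 4 sarcomas were trimmed and aligned by the authors (per the submitters' processing notes FastQC 0.10.1, cutadapt 1.9.1 and HISAT2 2.0.1, GRCm38), and the deposited table holds raw counts per gene, made by the authors with HTSeq. The authors also deposited FPKM, which dividing each count by exon length and total count gave back for 100% of values. Few of the table's gene positions equal those of GENCODE M21 on GRCm38 (1435 of 52073), so positions were taken from that annotation by gene identifier. Rows without a symbol held at most 0.171% of the counts.

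Groups came from the treatment named in the labels. The labels do not tie the sarcomas to separate mice, so p-values measure only the spread between these samples. The test on counts used R 4.3.3 and edgeR 4.0.16 (filterByExpr, TMM, quasi-likelihood F-test, Benjamini-Hochberg adjustment over all 17188 genes, threshold 0.05). Each SE given is the absolute log2 fold change divided by the square root of its F statistic. The fits were first checked on simulated data. That check required recovery of changed genes only at a spread below that of these data, and otherwise only the right sign. It does not give the power of the test here. A count of 3, the limit that a 0 allows, was 0.165 to 0.197 CPM, and such limits cover counting error only. Alternatives were DESeq2 1.42.0, other scalings, other filters, a replicate block, each sarcoma left out, limma 3.58.1 on log2 FPKM with pseudocounts of 1 and 0.1, and the table without mitochondrially encoded genes. The 10 genes and all lists were chosen with earlier results of these data known. The genes named were the 10 genes, the highest and the lowest log2 fold change of each list among genes of mean FPKM of at least 1, partner genes (Hspa8, Hsp90ab1, Hspa1l, Hspb2 and Hspe1) and the 3 nearest profiles to Hspa1a plus Hspa1b and to Cryab. Hspb3, Trap1, Hspa9 and Mt1 and the shared orders of the sarcomas were added after their values were seen. Promoter windows (RefSeq, GRCm38.p6) cover 250 bases before to 50 after a start, and those of Hsf1, Hsp90aa1 and Cryab were not used here. Figures were drawn with matplotlib 3.10.9 in Python 3.11.15.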

Additional observations from a re-analysis of the deposited data

How the results depend on the processing

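The 10 genes gave 0 calls in edgeR under each scaling, under the filter on FPKM, with any 1 sarcoma left out, in limma on FPKM and with the replicate block, which also called 0 of all genes and gave a median log2 fold change of 0.35. The replicate numbers are not stated to pair the sarcomas. Deviations from the group mean correlated at 5.04e-05 between same-numbered sarcomas. With 2 sarcomas per group the crossed pairing gives the same value with its sign turned (-5.04e-05), so this cannot exclude a pairing. DESeq2 called 754 genes and 1 of the 10, and edgeR without a filter called 541 genes and 1 of the 10, in each case Cryab (adjusted p = 0.000107 and 0.00621); the cause was not tested. Scaling to total counts alone moved the median of all genes from -0.02 to -0.28 and that of the 10 genes from 0.37 to 0.08, and put 2 of the 10 instead of 1 lower in both ATO sarcomas, as did FPKM with either pseudocount (2 and 2). The number fitted higher ran from 3 to 8 with 1 sarcoma left out. Hsf1, Hsp90aa1, Hspb1, Cryab and Bag3 kept their direction in all 13 alternatives. The other genes turned. Hspa1b was at -0.04 with total counts and at -0.12 and -0.16 as FPKM, and ran from -0.81 to 0.92 with 1 sarcoma left out. Dnajb1 was at -0.003, -0.016 and -0.017 under the same settings and ran from -0.10 to 0.60. Hsph1 was at 0.014 with median-of-ratios factors and ran from -1.27 to 0.64, Hspa1a from -0.51 to 1.57, and Hspd1 from -0.043 to 1.496. With total counts alone the median of the mitochondrial class went from 0.84 to 0.51 (6 higher, 1 lower), that of TRiC from -0.42 to -0.66 and that of the other heat or arsenite genes from 0.70 to 0.33, and as FPKM with a pseudocount of 1 that of the small heat shock proteins went from 3.14 to 1.63. The least abundant of the 10 genes, Hspa1a, had 75 counts in its lowest sarcoma.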

Other observations

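Markers of other cell types also differed between the sarcomas. Osteoblast markers summed to 465 FPKM in ATO 1 and to 4.69 to 12.7 in the other sarcomas. In normalized CPM 2 of the 5 genes, Ibsp and Alpl, were higher in both ATO sarcomas, beside 19.7% of all genes. Ibsp had only 9 counts in ATO 2 against 11 and 13 in PBS, and its FPKM overlapped between the groups. Leukocyte markers summed to 1670 and 805 FPKM in PBS 1 and PBS 2 and to 728 and 5350 in ATO 1 and ATO 2. Most of this sum was Lyz2, at 1497.08 and 698.2 FPKM in PBS and 594.32 and 5114.59 in ATO. Lyz2 and Cd68 were highest in ATO 2. By FPKM Ptprc, Cd3e and Cd79a were highest in PBS 2 and lowest in PBS 1, with Ptprc at 4.12 and 21.01 in PBS and 6.03 and 10.6 in ATO. Erythroid markers summed to 288 and 19100 in PBS and 10500 and 1080 in ATO, and endothelial markers to 98.1 and 817 against 66 and 140. Epithelial markers summed to 0.76 and 3.9 against 3.91 and 12.3. Of the 4 epithelial genes 2, Krt14 and Krt18, were higher in both ATO sarcomas, beside 19.7% of all genes. Krt14 was near the floor, at 0 and 1 counts in PBS and 4 and 38 in ATO.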
